A study of Drosophila melanogaster with 22 samples.

Results

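The change of the wasp infestation response of circulating larval blood cells between an early and a late time point was measured in 10 of the 22 samples of the study. The 10 samples were all nanopore libraries of blood, and each gene was asked whether its infestation effect at the late time point differed from its effect at the early one. All larvae were Drosophila melanogaster of the wild-type OreR strain, and no transgene or mutation is named for any group. Late infested blood came from larvae at 120 h after egg laying and 48 h after infestation (3 libraries), and its control from uninfested larvae at 120 h (2 libraries). Early infested blood came from larvae at 96 h after egg laying and 24 h after infestation (3 libraries), and its control from uninfested larvae at 96 h (2 libraries). Age and time since infestation changed together in the infested groups, so the 2 cannot be told apart. Hemocytes were released with glass beads from 100 to 150 larvae per condition, per the labels' protocols, and 10 larvae were dissected per replicate, so each library is a pool of animals. The wasp species is not named in the labels. Nothing in the labels says that the replicates of a group came from separate cohorts, so the p-values measure the spread between these libraries, which may be technical.

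Larval blood holds 3 classes of hemocytes. Plasmatocytes are phagocytes that also make matrix and clotting proteins, crystal cells carry the prophenoloxidases PPO1 and PPO2 that start melanization, and lamellocytes are large flat cells, rare in healthy larvae, that wrap and melanize the egg of a parasitoid wasp. Lamellocytes differentiate over the days that follow infestation and are rich in integrins, tubulin and actin, the surface antigen atilla and the prophenoloxidase PPO3. In bulk RNA, more cells of a type and more RNA per cell cannot be told apart.

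The libraries held 568080 to 2079764 gene counts each, and 6108 genes had enough counts to be tested. Levels of single genes are given as CPM, gene counts scaled to a common effective library size. Summed marker levels are CPM of the plain library total, so sums and single genes are on different scales. The late effect is the log2 ratio of infested to normal blood at 120 h, the early effect is the same ratio at 96 h, and the late-minus-early difference is the late effect less the early one. Each was tested by edgeR's quasi-likelihood test in 1 fit over the 10 libraries, and a gene is said to have passed at a Benjamini-Hochberg adjusted p under 0.05 over all 6108 genes. Replicate 1 of both infested groups stood apart from replicates 2 and 3. Counts of replicate 1 differed from those of its fellow replicates by a chi-square per degree of freedom of 10 to 20.4, against 2.67 to 3.18 between replicates 2 and 3 of any group. No normal library carries the number 1. At 120 h the infested replicate 1 held 4992 CPM of summed fat body markers, against 789.3 and 846.8 CPM in infested replicates 2 and 3. At 96 h the infested replicate 1 held 3438 CPM of summed muscle markers, against 1182 and 1343 CPM in infested replicates 2 and 3.

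The late effect was broader than the early one, but for few genes was the difference between them itself shown. The late effect passed for 1352 genes (22.1% of those tested), 825 higher (13.5%) and 527 lower (8.63%) in infested blood. The early effect passed for 372 genes (6.09%), 253 higher (4.14%) and 119 lower (1.95%). The late-minus-early difference passed for 150 genes (2.46%), 64 above 0 (1.05%) and 86 below 0 (1.41%). At an unadjusted p under 0.05 the difference held for 966 genes. Of the 1079 genes that passed late but not early, the difference passed for 93, and of the 99 that passed early but not late it passed for 16. Passing at 1 stage only was therefore mostly not accompanied by a shown difference between stages. The median log2 effect over all 6108 genes was -0.01 late and 0.01 early, and the median difference was -0.00319.

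The 150 genes fell into classes by the calls of the 2 effects. The late only class held 93 genes, where the late effect passed and the early one did not. In the reversed class, 24 genes passed at both stages with opposite signs. The early only class held 16 genes, and the growing class, same sign and larger late, held 15. A single gene, betaTub60D, passed at both stages with a smaller late effect (shrinking), and CG13311, of no named role, passed for the difference alone (-7.22 on the log2 scale, held in 3 of 10 fits with a library left out). A further 233 genes passed at both stages in the same direction with no shown difference, 170 higher and 63 lower. They are called sustained, which does not show that the 2 effects were equal. Among the early effects that passed, 66.9% also passed late in the same direction, against 18.4% of the late effects that also passed early. The 2 effects share no library, and across the 6108 genes their log2 values correlated at Pearson r = 0.338 and a Spearman rank correlation of 0.331, with genes not being independent replicates.

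**Figure D1:**
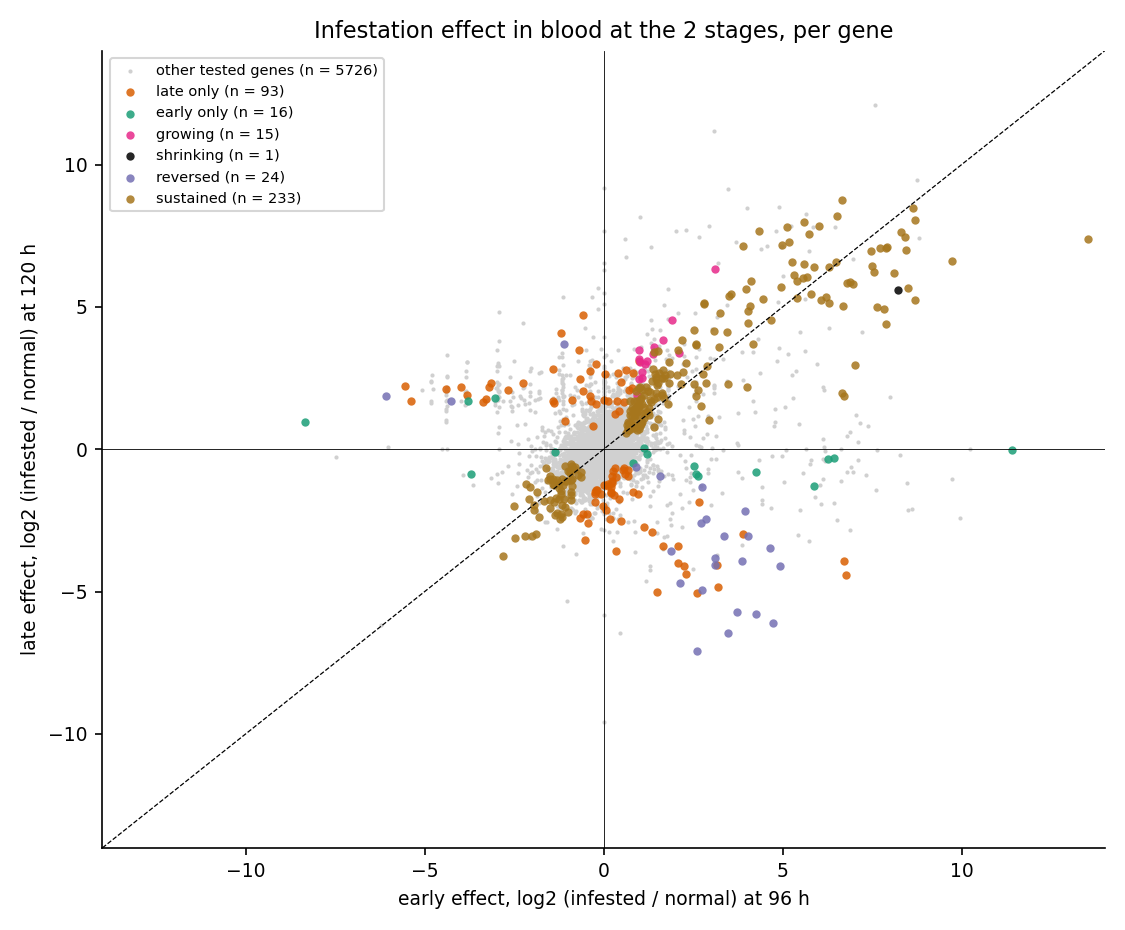
Late effect (y axis) against early effect (x axis) of infestation for the 6108 tested genes, both as fitted log2 ratios of infested to normal blood; colours mark the classes and the dashed line marks equal effects. The 24 reversed genes lie across the zero lines, 21 of them in the lower right, and the 15 growing genes lie above the dashed line in the upper right.

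The number of genes that passed depended strongly on which libraries were in the fit. Without replicate 1 of both infested groups the difference passed for 629 genes, of which 145 are among the 150. Leaving out 1 library at a time gave 374 and 224 genes without replicate 1 of the 120 h and 96 h infested groups, 70 and 93 without replicates 2 and 3 of the 120 h infested group, and 86 and 89 without those of the 96 h infested group. It gave 26 and 51 genes without replicates 2 and 3 of the 120 h normal group, and 53 and 43 without those of the 96 h normal group. In all 10 of these fits 20 of the 150 genes passed, among them Jon65Aiv, yip7, Gs1, Cpr49Ac, fabp, Oat, MtnA, Pebp1 and CG42394. With replicates 2 and 3 of each group summed into 1 sample, edgeR passed 0 genes, and 550 had an unadjusted p under 0.05. None of the 150 genes passed with the opposite sign in any of these fits. With the replicate number as a block the difference passed for 351 genes.

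Lamellocyte genes were far higher in infested blood at both stages. All 12 lamellocyte markers tested were higher in infested blood late and 10 were higher early, with a median log2 effect of 4.53 late and 2.84 early. Of these 12, 7 were sustained, and the difference passed for 3 (2 above 0 and 1 below). Shares over all genes were 13.5% higher late, 4.14% higher early, 3.81% sustained and 2.46% passing for the difference. Summed over the list, lamellocyte markers reached 15610 to 16100 CPM in 120 h infested blood, against 511.6 and 537.7 CPM in 120 h normal blood. At 96 h the sum was 4783 to 5980 CPM in infested blood, against 385.1 and 387.3 CPM in normal blood. The groups did not overlap at either stage, and the sum in infested blood was higher at 120 h than at 96 h in every library.

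The surface antigen atilla had 2314, 4896 and 4510 CPM in 120 h infested blood, against 25.9 and 19.3 CPM in 120 h normal blood. At 96 h atilla had 1304, 1472 and 1361 CPM in infested blood, against no reads in either normal library. The late effect was 7.38 ± 0.43 (log2, SE; edgeR adjusted p = 4.06e-06), and the early effect was at least 591-fold, taking 3 reads over both 96 h normal libraries as the floor. Its late-minus-early difference did not pass (edgeR adjusted p = 0.0829). The lamellocyte prophenoloxidase PPO3 had 713, 1068 and 1008 CPM in 120 h infested blood, against 6.21 and 7.43 CPM in 120 h normal blood. At 96 h PPO3 had 421, 665 and 678 CPM in infested blood, against 0 and 3.94 CPM in normal blood. Its effect at 120 h was 7.12 ± 0.43 (edgeR adjusted p = 2.69e-06). The 96 h normal libraries held 3 PPO3 reads in all, which gives an early ratio of 249 (95% exact interval 85.2 to 1210, counting error only). The difference between stages was -0.79 ± 0.90 (edgeR adjusted p = 0.772).

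Other lamellocyte genes kept the same pattern of low normal and high infested libraries. Tubulin alphaTub85E had 7607, 6530 and 6150 CPM in 120 h infested blood, against 77.6 and 63.9 CPM in 120 h normal blood, and 2103, 1800 and 1755 CPM in 96 h infested blood, against 27.5 and 15.8 CPM in 96 h normal blood. Both groups were about as far apart at either stage, with effects of 6.56 ± 0.30 late and 6.49 ± 0.32 early and a difference of 0.08 ± 0.40 (edgeR adjusted p = 1). The trehalose transporter Tret1-1 had effects of 5.46 ± 0.22 late and 3.56 ± 0.25 early, and the difference of 1.90 ± 0.43 did not pass (edgeR adjusted p = 0.126). The methuselah-like receptor mthl4 had a late effect of 6.95 ± 0.35. Its early ratio was 191 (95% exact interval 52.8 to 1580), with 2 reads in the 96 h normal libraries. The integrin subunit ItgaPS4 had a late effect of 6.60 ± 0.46 (edgeR adjusted p = 1.01e-05), and with no read in either 96 h normal library its early effect was at least 42.3-fold.

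The tubulin betaTub60D was the only gene whose effects passed at both stages with the same sign and whose difference passed in the direction of a smaller late effect. It had 6076, 5949 and 5829 CPM in 120 h infested blood, against 118 and 131 CPM in 120 h normal blood. At 96 h betaTub60D had 1699, 1284 and 1345 CPM in infested blood, against 3.93 and 5.25 CPM in normal blood. Every infested library was far above its controls, and normal blood itself was higher at 120 h. The effect was 5.58 ± 0.24 late and 8.23 ± 0.32 early, and the difference was -2.64 ± 0.40 (log2; edgeR adjusted p = 0.00747). With few betaTub60D reads in 96 h normal blood, the SEs of the early effect and the difference may understate the counting error. On the linear scale the sign turned, with the gap between group means 4389 CPM larger at 120 h, and betaTub60D was the only one of the 150 genes for which it did. The call was lost without replicate 2 or replicate 3 of the 96 h normal group (edgeR adjusted p up to 0.071).

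Growing effects were found for adhesion and cytoskeleton genes among others. Of 12 tested integrins and adhesion adaptors, the late effect passed for 10 and the early effect for 6, all higher, and the difference passed for 2 (mys and ItgaPS5), both above 0. Shares over all genes were 13.5% higher late, 4.14% higher early and 1.05% with a difference above 0. The list's median effect was 2.53 late and 1.10 early, and its median difference was 1.09. The alpha integrin ItgaPS5 had 226, 255 and 244 CPM in 120 h infested blood, against 20.2 and 19.3 CPM in 120 h normal blood. At 96 h ItgaPS5 had 220, 146 and 166 CPM in infested blood, against 62.9 and 70.9 CPM in normal blood. Infested blood was above normal blood at both stages, and the normal level was lower at 120 h than at 96 h in both libraries. The effect was 3.60 ± 0.23 late and 1.39 ± 0.20 early, a difference of 2.20 ± 0.30 (edgeR adjusted p = 0.00471). The call was lost without 120 h normal replicate 2 or 96 h normal replicate 3.

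The beta integrin mys, the common partner of the alpha subunits, had 692, 698 and 677 CPM in 120 h infested blood, against 66.2 and 66.9 CPM in 120 h normal blood. At 96 h mys had 280, 228 and 253 CPM in infested blood, against 62.9 and 55.1 CPM in normal blood. Here the normal libraries were close to each other at both ages and the infested level was higher late. The difference was 1.26 ± 0.22 (edgeR adjusted p = 0.0173). CAP, an adaptor that binds vinculin, had 294, 274 and 273 CPM in 120 h infested blood, against 11.9 CPM in each 120 h normal library. At 96 h CAP had 108, 54.5 and 80.0 CPM in infested blood, against 23.6 and 19.7 CPM in normal blood. Its difference was 2.64 ± 0.46 (edgeR adjusted p = 0.0166). The calls of mys and CAP were each lost without any 1 of the 4 normal libraries, with adjusted p up to 0.118 for mys and 0.101 for CAP. For the adaptors Ilk and Vinc the fitted differences were 1.15 ± 0.27 and 1.97 ± 0.49 and did not pass (edgeR adjusted p = 0.058 and 0.0725).

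Eb1, which tracks growing microtubule ends, had 1010, 1159 and 1184 CPM in 120 h infested blood, against 211 and 180 CPM in 120 h normal blood. At 96 h Eb1 had 340, 373 and 387 CPM in infested blood, against 163 and 182 CPM in normal blood. The groups were apart at both stages, with effects of 2.51 ± 0.17 late and 1.08 ± 0.17 early and a difference of 1.43 ± 0.23 (edgeR adjusted p = 0.0104). The actin-binding EF-hand protein Swip-1 had a difference of 2.17 ± 0.35 (edgeR adjusted p = 0.0108). Both calls were lost without any 1 of the 4 normal libraries. Of the 11 tested microtubule genes the late effect passed for 10 (9 higher, 1 lower) and the early effect for 5, all higher. Of the 23 tested actin cytoskeleton genes, 17 were higher late and 7 were higher early, and the difference passed for none, with a median of 0.27. All 8 chaperonin CCT subunits, which fold actin and tubulin, were higher late and 1 was higher early, with medians of 0.95 and 0.41, and the difference passed for none of them. Shares over all genes were 13.5% higher late, 4.14% higher early and 2.46% passing for the difference. The spectraplakin shot, which links actin to microtubules, was higher at both stages (3.41 ± 0.36 late, 1.41 ± 0.36 early), and its difference did not pass (edgeR adjusted p = 0.0628). The early shot call held in 4 of the 10 fits with a library left out. The filamin cher had a difference of 1.51 ± 0.40 (edgeR adjusted p = 0.0829).

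The rest of the growing class included fzr, RapGAP1, Klp98A, Galphai, krz, wun, the unnamed gene CG42394, the glutathione transferase GstD3 and 1 unannotated assembled transcript, and of these all but GstD3 were named after their values were seen. The kinesin Klp98A had a difference of 1.63 ± 0.32, RapGAP1 one of 2.18 ± 0.41 and the heterotrimeric G protein subunit Galphai one of 0.98 ± 0.20, the smallest of the class. For fzr, an activator of the anaphase-promoting complex, the difference was 2.05 ± 0.37. The arrestin krz had a difference of 1.48 ± 0.33 and the lipid phosphatase wun one of 1.91 ± 0.43, with edgeR adjusted p = 0.0452 and 0.0453, near the threshold. The calls of Klp98A, Galphai, krz and wun held only without replicate 1 of an infested group among the 10 fits with a library left out, and those of RapGAP1 and fzr held in 4 and 7 of them.

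CG42394 had 3542, 3236 and 3725 CPM in 120 h infested blood, against 290 and 340 CPM in 120 h normal blood. At 96 h CG42394 had 5396, 4085 and 4546 CPM in infested blood, against 2452 and 2245 CPM in normal blood. Infested levels were lower at 120 h than at 96 h in every library, and the normal level was lower by far more. The difference was 2.48 ± 0.28 (edgeR adjusted p = 0.00178) and passed in all 10 fits with a library left out. For GstD3 the normal level was also lower at 120 h, while the infested groups overlapped between ages, with 248, 292 and 256 CPM in 120 h infested blood, 29.0 and 20.8 CPM in 120 h normal blood, 246, 352 and 370 CPM in 96 h infested blood and 120 and 129 CPM in 96 h normal blood. Its difference was 1.98 ± 0.31 (edgeR adjusted p = 0.00996), a call lost without either 120 h normal library or 96 h normal replicate 3.

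**Figure D2:**
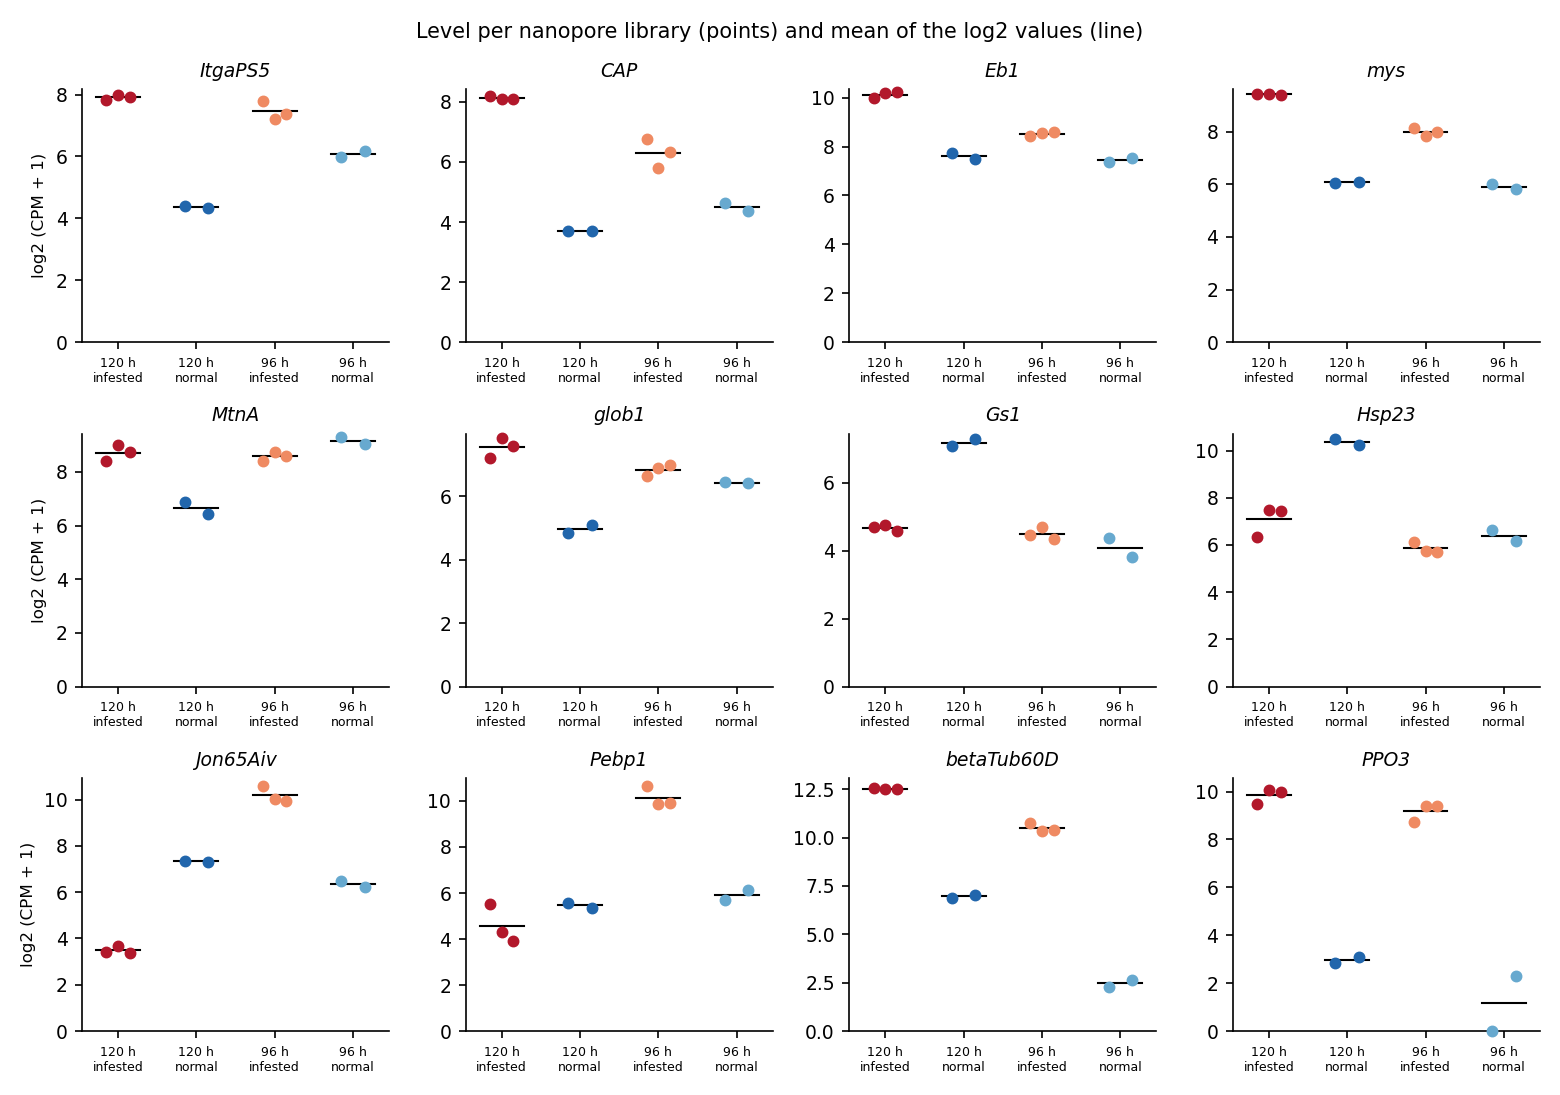
Levels of 12 genes as log2 (CPM + 1) in each of the 10 nanopore blood libraries (points), with the mean of the log2 values as a line, for 120 h infested, 120 h normal, 96 h infested and 96 h normal blood from left to right. MtnA and glob1 are lowest in 120 h normal blood, Gs1 and Hsp23 are highest there, and Jon65Aiv is lowest in 120 h infested and highest in 96 h infested blood.

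The same late-minus-early difference can come from a change with age in infested blood, in normal blood or in both, so both stage changes (120 h against 96 h) were set side by side. The stage change passed for 1506 genes in infested blood (24.7%), 14.8% higher and 9.87% lower at 120 h, and for 300 in normal blood (4.91%), 2.59% higher and 2.32% lower. Of the 64 genes with a difference above 0, the larger stage change was that of infested blood for 41 and that of normal blood for 23. Of the 86 genes below 0, it was that of infested blood for 38 and that of normal blood for 48. For the 52 late only genes with a difference below 0, normal blood had the larger change for 36, with a median log2 stage change of -0.26 in infested blood and 1.81 in normal blood over those 36. Genes were assigned by the larger stage change, so medians within such groups follow in part from that choice. They only describe the genes, here and for the growing genes below. Of the 11 growing genes carried by infested blood, the median stage change was 1.52 in infested and -0.28 in normal blood. The other 4 growing genes had medians of 0.09 in infested and -2.01 in normal blood. The fitted early effect had the opposite sign to the late one for 67 of the 93 late only genes. By the definition of the class it passed for none of them. Choosing genes by a difference that passed also favours opposite signs, so this count is no separate result.

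**Figure D3:**
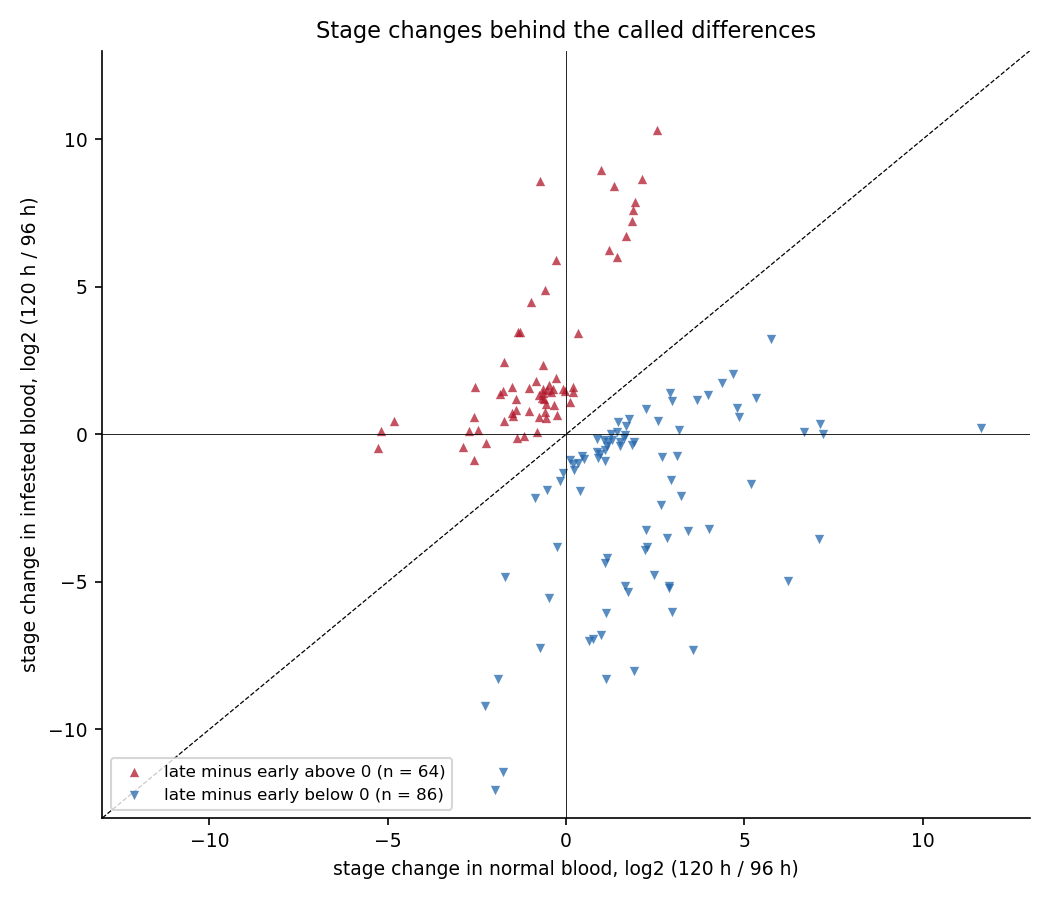
Stage change, log2 of 120 h over 96 h, in infested blood (y axis) against normal blood (x axis) for the 150 genes whose infestation effect differed between stages; the dashed line marks equal changes. Upward triangles are the 64 genes with a late-minus-early difference above 0 and downward triangles the 86 below 0, and many downward triangles lie near 0 on the y axis with values above 0 on the x axis.

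Late only genes that were lower in infested blood included metabolic, heat shock and antioxidant genes and 1 listed cuticle protein gene. Gs1, a glutamine synthetase, had 24.9, 25.9 and 23.1 CPM in 120 h infested blood, against 134 and 155 CPM in 120 h normal blood. At 96 h Gs1 had 21.2, 25.2 and 19.3 CPM in infested blood, against 19.6 and 13.1 CPM in normal blood. The 120 h normal libraries alone were high, and the other 3 groups lay close together. The late effect was -2.53 ± 0.19, the early effect 0.49 ± 0.27 (edgeR adjusted p = 0.411), and the difference -3.02 ± 0.32 (edgeR adjusted p = 0.00119). The cuticle protein gene Cpr49Ac had 131, 63.0 and 61.3 CPM in 120 h infested blood and 989 and 1002 CPM in 120 h normal blood. At 96 h Cpr49Ac had 57.3, 34.8 and 44.4 CPM in infested blood and 37.3 and 34.1 CPM in normal blood, which overlap. Its difference was -3.90 ± 0.49 (edgeR adjusted p = 0.00348). Of 15 tested cuticle protein genes only Cpr49Ac passed for the difference, 2 were lower late and 1 was higher early. The list medians were 0.0 late, 0.42 early and -0.92 for the difference. Shares over all genes were 1.41% with a difference below 0, 8.63% lower late and 4.14% higher early. The fatty acid binding protein gene fabp had 449, 490 and 437 CPM in 120 h infested blood, against 2880 and 2593 CPM in 120 h normal blood. At 96 h fabp had 251, 378 and 384 CPM in infested blood, against 477 and 444 CPM in normal blood. The gap at 96 h was small and did not pass, and the difference was -2.13 ± 0.29 (edgeR adjusted p = 0.00471). All 3 calls held in the 10 fits with a library left out.

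Among the other metabolic genes of this class, named after their values were seen, the differences were -1.77 ± 0.24 for the ornithine aminotransferase Oat, -1.49 ± 0.21 for the cystathionine lyase Cth and -1.41 ± 0.20 for the isocitrate dehydrogenase Idh. The proline synthesis gene P5CS had a difference of -1.98 ± 0.40 and the inositol oxygenase Miox one of -2.63 ± 0.44. The edgeR adjusted p ran between 0.00474 for Oat and 0.0281 for P5CS. Miox had 123, 197 and 198 CPM in 120 h infested blood, against 941 and 935 CPM in 120 h normal blood, 32.6, 63.5 and 59.3 CPM in 96 h infested blood and 33.4 and 55.1 CPM in 96 h normal blood. The calls of Cth and Idh were lost without 120 h normal replicate 2, that of Miox without either 120 h normal library or 96 h normal replicate 2, and that of P5CS held only without replicate 1 of an infested group. For Idh the pattern was another, since its stage change was -1.20 in infested and 0.21 in normal blood.

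The small heat shock protein gene Hsp23 had 80.0, 179 and 173 CPM in 120 h infested blood, against 1432 and 1216 CPM in 120 h normal blood. At 96 h Hsp23 had 69.7, 52.7 and 50.4 CPM in infested blood, against 98.2 and 70.9 CPM in normal blood. The 120 h normal libraries stood above all others. The difference was -2.66 ± 0.45 (edgeR adjusted p = 0.0144), and it was -1.83 ± 0.41 for Hsp27 (edgeR adjusted p = 0.0473). Of 15 tested heat shock genes these 2 passed for the difference, 6 were lower late and none passed early, with list medians of -1.06 late, -0.16 early and -1.14 for the difference. Shares over all genes were 1.41% with a difference below 0, 8.63% lower late and 6.09% passing early. The Hsp27 call held only without 120 h infested replicate 1, and the Hsp23 call was lost without 120 h normal replicate 2 or either 96 h normal library. Members of such families are similar in sequence, and reads could be shared between copies.

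Redox genes moved in both directions. Of 12 tested, the difference passed for 3, against 2.46% of all genes. The catalase gene Cat, which breaks down hydrogen peroxide, had 115, 102 and 96.0 CPM in 120 h infested blood, against 291 and 296 CPM in 120 h normal blood. At 96 h Cat had 108, 120 and 130 CPM in infested blood, against 145 and 136 CPM in normal blood. Only the 120 h normal libraries stood out, and the difference was -1.25 ± 0.21 (edgeR adjusted p = 0.0129). The glutathione transferase GstE1 had a difference of -1.47 ± 0.29, and Gclc, the catalytic subunit of glutathione synthesis, one of 1.80 ± 0.39, with edgeR adjusted p = 0.0275 and 0.0423. The ecdysone-induced transcription factor br had 19.5, 15.9 and 23.1 CPM in 120 h infested blood, against 94.6 and 89.2 CPM in 120 h normal blood. At 96 h br had 22.9, 18.0 and 17.8 CPM in infested blood, against 31.4 and 27.6 CPM in normal blood. Its difference was -1.68 ± 0.33 (edgeR adjusted p = 0.0263). Of the 6 tested ecdysone response genes 5 were lower late and none passed early, against 8.63% and 6.09% of all genes. Spn27A, a serpin that restrains the melanization cascade, had a difference of -1.33 ± 0.30 (edgeR adjusted p = 0.0473). The calls of Gclc, GstE1, br and Spn27A held in 1, 4, 4 and 2 of the 10 fits with a library left out, that of Cat in 7.

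Late only genes that were higher in infested blood included MtnA, a metallothionein. MtnA had 338, 514 and 425 CPM in 120 h infested blood, against 118 and 84.8 CPM in 120 h normal blood. At 96 h MtnA had 338, 424 and 390 CPM in infested blood, against 625 and 520 CPM in normal blood. Infested blood lay above normal blood late and below it early, and infested levels at the 2 ages overlapped. At 120 h the effect was 2.05 ± 0.23, the early effect -0.57 ± 0.21 (edgeR adjusted p = 0.152) and the difference 2.62 ± 0.31 (edgeR adjusted p = 0.00251). The globin gene glob1 had 146, 226 and 191 CPM in 120 h infested blood, against 27.4 and 32.7 CPM in 120 h normal blood. At 96 h glob1 had 98.8, 118 and 124 CPM in infested blood, against 86.4 and 84.0 CPM in normal blood. Its difference was 2.26 ± 0.31 (edgeR adjusted p = 0.00471), with the lowest levels again in 120 h normal blood.

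Arc1, whose product forms capsid-like particles that carry RNA, had 679, 940 and 876 CPM in 120 h infested blood, against 126 and 138 CPM in 120 h normal blood. At 96 h Arc1 had 422, 219 and 193 CPM in infested blood, against 271 and 272 CPM in normal blood. Late infested libraries were above all others, early infested and normal libraries overlapped, and the difference was 2.62 ± 0.43 (edgeR adjusted p = 0.0123). The transporter gene MFS3 had a difference of 2.61 ± 0.34 (edgeR adjusted p = 0.00426), and rgn, a C-type lectin gene known for its part in imaginal disc regeneration, one of 3.13 ± 0.59 (edgeR adjusted p = 0.0232). The troponin C gene TpnC73F, a muscle gene, had a difference of 3.22 ± 0.64 (edgeR adjusted p = 0.0275). It was the only one of 15 tested muscle markers whose difference passed, against 2.46% of all genes. Summed muscle markers were at 1607, 529.4 and 581.8 CPM in 120 h infested blood, against 560.6 and 599.9 CPM in 120 h normal blood. At 96 h they were at 3438, 1182 and 1343 CPM in infested blood, against 3713 and 3297 CPM in normal blood. Their part in the TpnC73F result was not tested. The MFS3 and glob1 calls were lost without 120 h normal replicate 2, and the Arc1 call without any 1 of the 4 normal libraries. The calls of rgn and TpnC73F held in 4 and 3 of the 10 fits.

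Genes on the midgut list made up 6 of the 24 reversed genes, and further digestive proteases outside the list, such as Jon99Ciii, were reversed too. The midgut list holds digestive proteases and lysozymes, of which 15 of 27 were tested. The late effect passed for 12, all lower, and the early effect for 8, all higher. Shares over all genes were 8.63% lower late, 4.14% higher early and 1.41% with a difference below 0. The difference passed for 12, all below 0, and the list median was -3.93 late, 2.53 early and -6.82 for the difference. Of these 12 genes 6 were reversed, 5 late only and 1 early only. Summed over the 27 members, midgut transcripts were at 37.06 to 127.4 CPM in 120 h infested blood, against 794.8 and 856.8 CPM in 120 h normal blood. At 96 h the sum was 2908 to 4734 CPM in infested blood, against 319.9 and 353.8 CPM in normal blood. The 4 groups did not overlap at all, and 9 members in 120 h infested blood, 4 in 120 h normal blood, 4 in 96 h infested blood and 12 in 96 h normal blood were without a read.

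Jon65Aiv, a serine protease of the Jonah family, had 9.73, 11.9 and 9.25 CPM in 120 h infested blood, against 160 and 159 CPM in 120 h normal blood. At 96 h Jon65Aiv had 1520, 1055 and 985 CPM in infested blood, against 88.4 and 74.8 CPM in normal blood. Infested blood was below normal blood late and above it early, in every library. The late effect was -3.91 ± 0.25 and the early effect 3.87 ± 0.24, a difference of -7.78 ± 0.35 (edgeR adjusted p = 1.83e-06), the smallest p of all genes. The protease gene yip7 had 4.33, 0 and 0 CPM in 120 h infested blood and 114 and 122 CPM in 120 h normal blood. At 96 h yip7 had 362, 350 and 335 CPM in infested blood and 29.5 and 32.8 CPM in normal blood. Its difference was -9.92 ± 0.62 (edgeR adjusted p = 1.15e-05). The few yip7 reads in 120 h infested blood were all in replicate 1, so this SE may understate the counting error.

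Among the other reversed proteases the differences were -7.18 ± 0.35 for Jon65Aiii, -9.43 ± 0.55 for Jon25Bi, -6.82 ± 0.40 for deltaTry and -5.47 ± 0.37 for Jon99Ciii, and these 4 calls held in all 10 fits with a library left out. Jon25Bi had 4.33, 0.664 and 0 CPM in 120 h infested blood, so its SE may be too small as well. Jon99Cii and Jon25Biii passed late and for the difference, at -6.33 ± 1.10 and -6.69 ± 1.21, and not early, and these calls were lost without any 1 of the 4 normal libraries, that of Jon25Biii also without 120 h infested replicate 2. The digestive lysozyme gene LysB had a difference of -7.71 ± 1.06 (edgeR adjusted p = 0.00474). With 2 reads in 120 h infested blood, its late ratio was 0.0259 (95% exact interval 0.00307 to 0.0977). Its relative LysS was early only, with 542, 316 and 283 CPM in 96 h infested blood against 70.7 and 61.7 CPM in 96 h normal blood. The LysS difference was -3.12 ± 0.60 (edgeR adjusted p = 0.0245), a call that held in 4 of the 10 fits with a library left out. The Jonah, trypsin and lysozyme genes have near-identical copies, so the split of reads among them is uncertain. The part of gut tissue carried into the hemocyte preparations in these results was not tested.

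Other genes outside the list shared the pattern. Acbp4, an acyl-CoA binding protein gene, had no reads in the 3 libraries of 120 h infested blood, against 7.24 and 4.46 CPM in 120 h normal blood. At 96 h Acbp4 had 765, 364 and 366 CPM in infested blood, against 27.5 and 24.9 CPM in normal blood. It was at least 7.17-fold lower in infested blood late, and its late-minus-early difference was at most -7.09 on the log2 scale, with 3 reads over the 120 h infested group as the floor (edgeR adjusted p = 0.00825). Ag5r2, of the antigen 5 family, had a difference of -6.12 ± 1.04 (edgeR adjusted p = 0.0144). The calls of LysB, Acbp4 and Ag5r2 were lost without 120 h normal replicate 2. Pebp1, a phosphatidylethanolamine-binding protein gene, was early only. It had 44.3, 18.6 and 13.9 CPM in 120 h infested blood and 46.0 and 40.1 CPM in 120 h normal blood, which overlap. At 96 h Pebp1 had 1617, 937 and 963 CPM in infested blood, against 51.1 and 69.5 CPM in normal blood. The early effect was 4.26 ± 0.44, the late effect -0.79 ± 0.43 (edgeR adjusted p = 0.237) and the difference -5.05 ± 0.60 (edgeR adjusted p = 0.00251), which held in all 10 fits with a library left out.

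Some fat body genes were higher in infested blood at 96 h. Of 8 tested fat body markers, 3 were higher early, 1 was lower late, and the difference passed for 3, all below 0, with a median of -3.76. Shares over all genes were 4.14% higher early, 8.63% lower late and 1.41% with a difference below 0. The larval storage protein gene Lsp2 had 241, 98.9 and 118 CPM in 120 h infested blood, against 337 and 430 CPM in 120 h normal blood. At 96 h Lsp2 had 47.6, 62.3 and 85.9 CPM in infested blood, against 9.82 and 9.19 CPM in normal blood. The groups were apart in opposite directions at the 2 stages, and the difference was -4.08 ± 0.65 (edgeR adjusted p = 0.0108). Lsp1gamma, another storage protein gene, had 436, 119 and 124 CPM in 120 h infested blood and 376 and 443 CPM in 120 h normal blood, and 288, 421 and 431 CPM in 96 h infested blood and 57.0 and 69.5 CPM in 96 h normal blood. Its late groups overlapped through infested replicate 1, and the difference was -3.43 ± 0.72 (edgeR adjusted p = 0.0361). The odorant binding protein gene Obp99b had 658, 223 and 234 CPM in 120 h infested blood and 377 and 375 CPM in 120 h normal blood. At 96 h Obp99b had 116, 444 and 394 CPM in infested blood and no reads in normal blood, an early effect of at least 139-fold and a difference of at most -7.23 on the log2 scale (edgeR adjusted p = 0.0178). Summed fat body markers were at 789.3 to 4992 CPM in 120 h infested blood, 3521 and 4108 CPM in 120 h normal blood, 1917 to 2499 CPM in 96 h infested blood and 406.6 and 1205 CPM in 96 h normal blood. The part of fat body RNA in these results was not tested. The calls of Lsp2, Obp99b and Lsp1gamma held in 8, 6 and 2 of the 10 fits with a library left out. The organic cation transporter gene Orct was also early only, with a difference of -1.30 ± 0.29 (edgeR adjusted p = 0.0452) that held only without replicate 1 of an infested group.

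Genes of the male germline were highest in 120 h infested blood. The 4 testable members of the list of 10 were all higher late, none passed early, and the difference passed for 2 (ocn and Mst87F). Shares over all genes were 13.5% higher late, 6.09% passing early and 2.46% passing for the difference. The testis gene ocn had 128, 108 and 121 CPM in 120 h infested blood, against 25.3 and 20.8 CPM in 120 h normal blood. At 96 h ocn had 5.29, 0 and 0 CPM in infested blood and 11.8 and 6.56 CPM in normal blood. The difference was 4.57 ± 1.03 (edgeR adjusted p = 0.0471), and it was 5.04 ± 1.14 for the sperm protein gene Mst87F (edgeR adjusted p = 0.0471). In 96 h blood the infested over normal ratio of Mst87F was 0.0843 (95% exact interval 0.0154 to 0.307), on 3 reads in infested blood. The related Mst84Da was reversed, with 26, 85 and 60.1 CPM in 120 h infested blood against 16 and 14.9 CPM in 120 h normal blood, and no reads in 96 h infested blood against 7.86 and 7.87 CPM in 96 h normal blood. Its difference was at least 5.17 (edgeR adjusted p = 0.0301). The testis genes Dpy-30L2 and blanks, outside the list, had differences of 6.18 ± 1.21 and 3.11 ± 0.67. RpL37-2, a second copy of the gene for ribosomal protein L37, had a difference of 5.47 ± 1.07 and was the only one of 86 tested cytosolic ribosomal protein genes to pass. Dpy-30L2 and RpL37-2 had 1 and 2 reads in 96 h infested blood, with early ratios of 0.0457 (95% exact interval 0.00103 to 0.341) and 0.0609 (0.00662 to 0.274). Summed male germline markers were at 312.2 to 328.0 CPM in 120 h infested blood, 72.12 and 81.55 CPM in 120 h normal blood, 14.38 to 27.71 CPM in 96 h infested blood and 35.01 and 35.21 CPM in 96 h normal blood. The part of gonad tissue in these results was not tested, and the calls of ocn, Mst87F, Mst84Da, Dpy-30L2, blanks and RpL37-2 each held in only 2 or 3 of the 10 fits with a library left out.

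**Figure D4:**
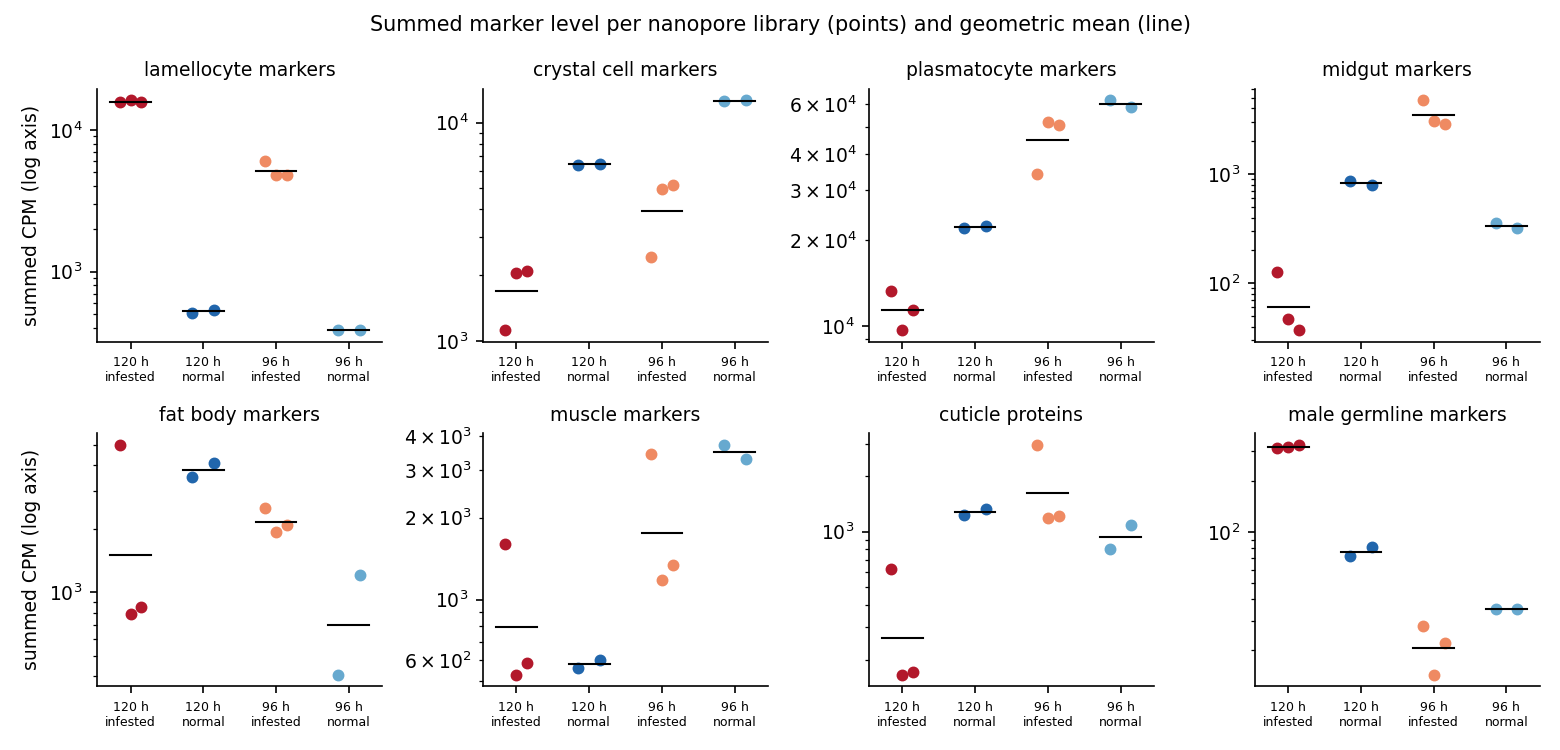
Summed CPM (log axis) of 8 marker lists in each of the 10 nanopore blood libraries (points), with the geometric mean as a line, for 120 h infested, 120 h normal, 96 h infested and 96 h normal blood from left to right. Lamellocyte sums are high in both infested groups, midgut sums are lowest in 120 h infested and highest in 96 h infested blood, and the 120 h infested replicate 1 (left point) stands apart for fat body, muscle and cuticle genes. The 96 h infested replicate 1 also stands apart for muscle and cuticle genes.

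Crystal cell and plasmatocyte markers were lower in infested blood with no shown difference between stages. Of 10 tested crystal cell markers 8 were lower late and 7 were lower early, 7 were sustained, and the difference passed for none, with a median of -0.02. Shares over all genes were 8.63% lower late, 1.95% lower early and 2.46% passing for the difference. PPO1 had 234, 540 and 547 CPM in 120 h infested blood, against 1919 and 1932 CPM in 120 h normal blood. At 96 h PPO1 had 547, 1168 and 1135 CPM in infested blood, against 3752 and 3552 CPM in normal blood. Infested libraries were below normal ones at both ages, with replicate 1 lowest in both infested groups. The effect was -2.13 ± 0.38 late and -1.94 ± 0.38 early, and the difference was -0.18 ± 0.54 (edgeR adjusted p = 0.936). PPO2 had effects of -1.83 ± 0.40 late and -1.66 ± 0.40 early, and the early call held in 4 of the 10 fits with a library left out. The late PPO2 call was lost without 120 h normal replicate 2. The early PPO1 call was lost without either 96 h normal library. The crystal cell transcription factor lz did not pass the filter on low counts.

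Of 13 tested plasmatocyte markers 9 were lower late and 5 were lower early, against 8.63% and 1.95% of all genes. The difference passed for none of them, against 2.46% of all genes, with a median of -0.53. Hml, which encodes the clotting protein hemolectin, had 225, 143 and 140 CPM in 120 h infested blood, against 396 and 415 CPM in 120 h normal blood. At 96 h Hml had 305, 333 and 295 CPM in infested blood, against 802 and 570 CPM in normal blood. The effects were -1.26 ± 0.22 late and -1.14 ± 0.22 early, and the early one did not pass without 96 h normal replicate 2 (edgeR adjusted p = 0.172). The collagen IV gene Col4a1 had 392, 386 and 380 CPM in 120 h infested blood, against 1289 and 1236 CPM in 120 h normal blood, and 629, 1069 and 1114 CPM in 96 h infested blood, against 2440 and 2239 CPM in 96 h normal blood. Its effects were -1.71 ± 0.23 late and -1.32 ± 0.23 early, the early one again lost without 96 h normal replicate 2. The phagocytic receptor NimC1 and the peroxidasin Pxn were lower late (-0.81 ± 0.21 and -1.38 ± 0.25) and did not pass early (0.28 ± 0.22 and -0.40 ± 0.25), and neither difference passed (edgeR adjusted p = 0.101 and 0.219). The late NimC1 call was lost without either 120 h normal library and without replicate 2 or 3 of the 120 h infested group (edgeR adjusted p up to 0.0948).

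No gene of the immune signalling lists passed for the difference, against 2.46% of all genes. Lists of 5 to 11 tested genes are too short to be told apart from that share. Of 11 tested JAK-STAT and Turandot genes 6 were higher and 1 was lower late and 1 was higher early. The stress peptide TotA had 95.2, 153 and 175 CPM in 120 h infested blood, against 6.21 and 7.43 CPM in 120 h normal blood. At 96 h TotA had 310, 149 and 185 CPM in infested blood, against 0 and 1.31 CPM in normal blood. The late effect was 4.40 ± 0.48 and the early ratio 265 (95% exact interval 47.4 to 10500) on 1 normal read, with a difference that did not pass (edgeR adjusted p = 0.22). Of the 10 Toll, 11 Imd and 9 JNK pathway genes tested, 1, 4 and 3 were higher and 2, 0 and 0 lower late. Early, 1 gene of each list was higher, and 1 Toll gene was lower. Of 5 testable antimicrobial peptide genes 2 were higher at each stage. Shares over all genes were 13.5% higher and 8.63% lower late, and 4.14% higher and 1.95% lower early. Few genes of the housekeeping lists passed. The 29 oxidative phosphorylation genes had medians of -0.06 late and 0.22 early and the 31 proteasome genes 0.11 late and 0.32 early, with 0 and 1 genes passing at each stage. The 86 cytosolic ribosomal protein genes had medians of -0.50 late and -0.40 early, and 2 of them passed late and 1 early, against all-gene medians of -0.01 late and 0.01 early.

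**Figure D5:**
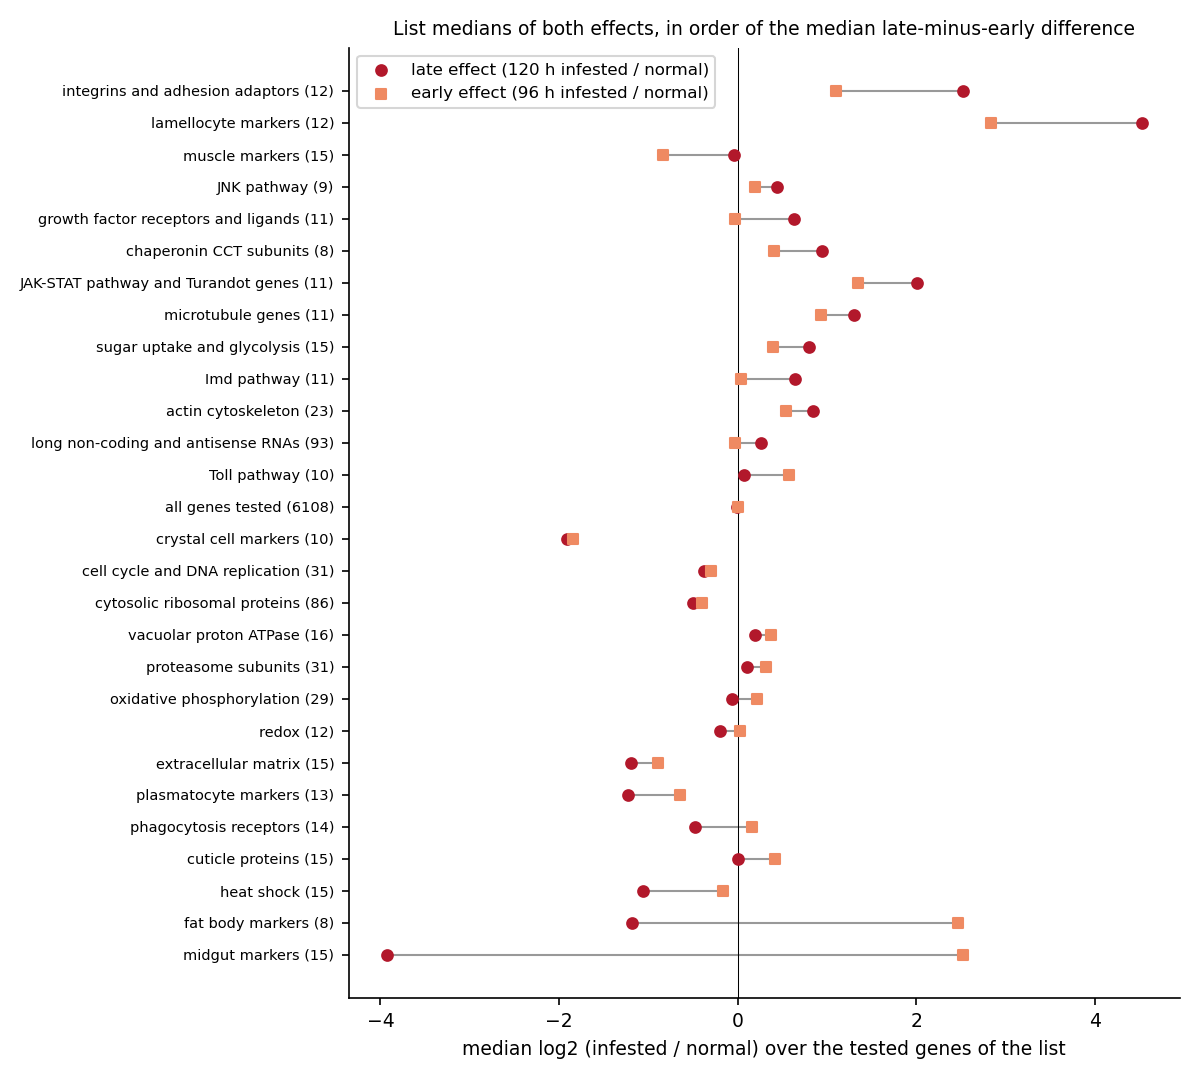
Median log2 effect of infestation over the tested genes of each list with at least 8 tested genes (number in brackets), late as circles and early as squares, in order of the median late-minus-early difference. Midgut and fat body markers have medians on opposite sides of 0 at the 2 stages, lamellocyte markers and integrins have larger medians late, and crystal cell markers have nearly the same median at both stages.

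A pair of RNA species without a protein stood out. The long non-coding RNA lncRNA:CR40469 had 489, 266 and 369 CPM in 120 h infested blood, against 29.5 and 26.8 CPM in 120 h normal blood. At 96 h lncRNA:CR40469 had 622, 360 and 579 CPM in infested blood, against 967 and 1245 CPM in normal blood. Both infested groups overlapped and the normal groups were far apart. The difference was 4.80 ± 0.45 (edgeR adjusted p = 0.000374). The ribosomal RNA pseudogene 28SrRNA-Psi:CR41609 had 131, 174 and 186 CPM in 120 h infested blood, 282 and 311 CPM in 120 h normal blood, 191, 109 and 153 CPM in 96 h infested blood and 2499 and 1430 CPM in 96 h normal blood. Its early effect was -3.71 ± 0.29 and its difference 2.85 ± 0.41 (edgeR adjusted p = 0.00591), and it was named after its values were seen. The call was lost without 120 h normal replicate 2. Of 93 tested long non-coding and antisense RNAs, the difference passed for 4, all above 0, against 2.46% of all genes (1.05% above 0).

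The 4 Illumina blood libraries, 1 per condition, give a description without a test. Of the 150 genes, 127 reached 20 CPM in at least 1 of these libraries, and the short-read difference, log2 of CPM + 5, had the same sign for 87 of them (68.5%), against 52.1% of all 5143 tested genes at that level. The share was 28 of 58 for genes above 0, which is not above that of all genes, and 59 of 69 for genes below 0. Over the 5143 genes, short-read and nanopore differences had a Spearman rank correlation of 0.036. For the late and early effects it was 0.13 and 0.5. The signs matched for 308 of 339 early effects that passed (90.9%, against 65.6% of all genes) and for 800 of 1206 late effects (66.3%, against 53.6%). The 120 h normal Illumina library stood apart. Its summed plasmatocyte markers were 14400 CPM, against 34100 CPM in the 120 h infested, 72300 CPM in the 96 h infested and 103000 CPM in the 96 h normal Illumina library. It also held 550.0 CPM of male germline markers, against 94.0 CPM in the 120 h infested library, the reverse of the nanopore order. Among the genes above, the short-read difference was -4.27 for Gs1, -4.23 for Cpr49Ac, -4.84 for Hsp23, -4.35 for Jon65Aiv, -5.40 for Pebp1, 3.08 for ItgaPS5, 2.95 for glob1 and 1.32 for MtnA, with the nanopore sign. For 5 of the reversed digestive proteases the short reads did not show the late decrease. The short-read late effect was 1.03 for Jon65Aiv, 0.17 for Jon65Aiii, 0.24 for Jon25Bi, 0.32 for deltaTry and 0.39 for yip7, all above 0, so their short-read difference came from the early effect, such as 5.38 for Jon65Aiv. The summed midgut markers were 32.91 CPM in the 120 h infested and 11.04 CPM in the 120 h normal Illumina library, and 2049 CPM in the 96 h infested and 97.83 CPM in the 96 h normal one. In the late pair this order is also the reverse of the nanopore one. Spread over 27 members, both late sums are low against the pseudocount of 5 CPM, which shrinks the per-gene late effects. The sums hold no pseudocount, and why their late order was reversed was not tested. For Jon99Ciii, outside the list, the short-read late effect was 0.29 and the early effect 0.45. Its short-read difference was -0.16, and 0.06 with a pseudocount of 1. With the sign opposite to nanopore, the short-read late-minus-early difference was -0.68 for Eb1, -0.89 for Swip-1, -0.18 for mys, -0.34 for Arc1, 1.18 for GstE1, -2.15 for ocn and -2.32 for Mst87F.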

How the data were processed

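RNA of circulating hemocytes was measured in 10 nanopore cDNA libraries and 4 Illumina libraries. The authors deposited whole-number gene counts for the nanopore libraries, and RSEM expected counts for the Illumina libraries, per the file headers. The submitters' processing notes name minimap2 2.17-r941, STAR 2.5.3a, RSEM 1.3.1, StringTie 2.1.3 and FastQC 0.11.8. Neither the genome build nor the nanopore counter or its strand setting is given in the sources used here, so overlapping genes and near-identical copies may share reads. Lines for ambiguous reads (0.503 to 1.31% of gene counts) and reads with no feature (0.383 to 0.788%) were left out. Gene symbols were matched by FlyBase ID for 17663 of 17714 IDs.

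Genes were kept by edgeR's filterByExpr (minimum count 10) and scaled by TMM. A quasi-likelihood model with 4 group means was fitted (edgeR 4.0.16, R 4.3.3), with contrasts for the late effect, the early effect, their difference and both stage changes. Standard errors are the fitted log2 value divided by the root of F. Where a group held few reads, such an SE can be smaller than the counting error. Where a group held no read, the fold is a bound at 3 reads over that group. Expected counts were used only as CPM, with a pseudocount of 5 CPM and unrounded.

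Named genes are the 12 largest differences in each direction at 20 CPM or more, the 6 genes of smallest p in each class, the 4 of smallest p in each list and a few fixed markers; exceptions are marked. Members and lists were chosen with earlier results of these data known. The fit was tested on simulated data. Deviations of same-numbered libraries correlated at 0.148 to 0.321 between the infested groups (different numbers -0.254 to 0.114), and at -0.0246 to 0.0688 for pairs with a normal library. Replicate 1 stood apart in both infested groups. Among infested replicates 2 and 3, same numbers gave 0.203 and 0.148, against 0.107 and 0.114 for different ones. In a normal group of 2 libraries the deviations mirror each other, so those correlations can hardly show pairing. Whether the numbers mark pairs was left undecided, and the difference was fitted without the block. Alternatives were other scalings and tests (DESeq2, limma voom), no filter, 16 libraries, each library left out, both infested replicates 1 left out, a replicate block, summed replicates and a threshold of 0.1. Promoter motifs were not analysed here, and 1 gene of the growing class is not reported here.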

Additional observations from a re-analysis of the deposited data

Results flagged for a closer look

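The infestation effect of 150 genes differed between 120 h and 96 h by edgeR's test of the difference itself. All values here are late-minus-early differences on the log2 scale for the genes named above. No explanation was weighed.

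Among genes of the growing class the difference was 2.20 for ItgaPS5, 1.98 for GstD3, 1.43 for Eb1, 2.17 for Swip-1, 2.64 for CAP, 1.26 for mys and 2.48 for CG42394. It was 2.18 for RapGAP1, 1.63 for Klp98A, 2.05 for fzr, 1.91 for wun, 1.48 for krz and 0.98 for Galphai. The shrinking effect of betaTub60D had a difference of -2.64.

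Late only genes above 0 had differences of 2.62 for MtnA, 2.61 for MFS3, 2.26 for glob1, 2.62 for Arc1, 3.13 for rgn, 3.22 for TpnC73F and 1.80 for Gclc. Testis genes of this class had 5.04 for Mst87F, 4.57 for ocn, 6.18 for Dpy-30L2 and 3.11 for blanks. Late only genes below 0 had -3.02 for Gs1, -3.90 for Cpr49Ac, -2.13 for fabp, -2.66 for Hsp23, -1.83 for Hsp27, -1.25 for Cat, -1.68 for br, -1.33 for Spn27A and -1.47 for GstE1. Metabolic genes had -1.77 for Oat, -1.49 for Cth, -1.41 for Idh, -1.98 for P5CS and -2.63 for Miox, and the proteases had -6.33 for Jon99Cii and -6.69 for Jon25Biii.

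Reversed genes had differences of -7.78 for Jon65Aiv, -7.18 for Jon65Aiii, -9.43 for Jon25Bi, -6.82 for deltaTry, -9.92 for yip7, -5.47 for Jon99Ciii, -7.71 for LysB, -4.08 for Lsp2 and -6.12 for Ag5r2, and 4.80 for lncRNA:CR40469. Fitted values that depend on the prior count, because a group held no read, were -10.05 for Acbp4, 7.97 for Mst84Da and -11.43 for Obp99b, whose bounds are given above. Early only genes had -5.05 for Pebp1, -3.12 for LysS, -3.43 for Lsp1gamma, -1.30 for Orct and 5.47 for RpL37-2. The pseudogene 28SrRNA-Psi:CR41609 had 2.85 and CG13311 had -7.22.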

How the results depend on the processing

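The late-minus-early difference kept its count within 1.5 times with DESeq2 size factors in edgeR, DESeq2, limma voom, the 16 libraries that include 96 h lymph gland and the fit without 96 h infested replicate 1, and not in the other fits run. DESeq2 gave 29 early only genes, voom 9 growing and 2 shrinking, and the 16 libraries 0 shrinking and 15 reversed. With no filter on low counts the difference passed for 552 of 13296 genes, the early effect for 808, the stage change for 2808 in infested and 771 in normal blood, with 252 late only, 105 early only, 47 growing, 11 shrinking, 99 reversed and 358 sustained genes. Without replicate 1 of both infested groups these were 629 (difference), 829 (early effect) and 869 (normal stage change), with 306 late only, 76 early only, 113 growing, 17 shrinking and 103 reversed. Whether the replicate numbers mark pairs could not be decided. The replicate block gave 351 differences and 622 normal stage changes, with 214 late only, 29 early only, 49 growing, 12 shrinking and 41 reversed. With replicates 2 and 3 summed, edgeR passed 0 differences (550 at an unadjusted p under 0.05) and 0 normal stage changes (632), 172 late and 25 early effects, 371 infested stage changes, 0 late only, early only, growing, shrinking and reversed genes and 20 sustained. That leaves both normal groups with 1 sample, assumed to vary like the infested ones. A threshold of 0.1 gave 270 differences, 621 early effects, 512 normal stage changes, 152 late only, 25 early only, 30 growing, 5 shrinking and 57 reversed. Apart from the numbers of genes and samples tested, the cause was not tested.

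Leaving out 1 library at a time gave 26 to 374 differences, 606 to 1550 late and 143 to 629 early effects, 1009 to 1757 infested and 90 to 514 normal stage changes. It gave 10 to 209 late only, 3 to 36 early only, 0 to 55 growing, 1 to 7 shrinking, 11 to 61 reversed and 94 to 295 sustained genes. Where it left 1 normal library, that library was assumed to vary like the other groups. For the named genes' calls, 650 of these comparisons kept the call, 260 lost it and 0 reversed, against 618, 110 and 0 under the other settings. With a pseudocount of 1, 85 short-read signs matched. Setting the 2 short-read effects apart was chosen after seeing the data. With 2 normal libraries per stage and 568080 to 2079764 counts a library, a median SE of 0.468 limited the difference.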

Other observations

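Matrix and sugar genes showed effects of infestation with no shown difference between stages. Of 15 tested extracellular matrix genes 9 were lower and 1 was higher late, and 5 were lower and 2 were higher early, with medians of -1.19 late and -0.89 early. Of all genes, 22.1% passed late (13.5% higher, 8.63% lower) and 6.09% early (4.14% higher, 1.95% lower). Of 15 sugar uptake and glycolysis genes 5 were higher late and 3 were higher early. Of 31 cell cycle and DNA replication genes 4 were lower late and 1 was lower early, and none was higher. The share that passed in either direction was smaller than that of all genes at both stages, and the share that was lower was not. Of 14 phagocytosis receptors 3 were higher and 5 were lower late, and 1 was lower early. The difference passed for none of the genes in these lists, against 2.46% of all genes.

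Salivary gland markers were at 790.0 CPM in replicate 1 of 120 h infested blood, against 11.58 and 7.862 CPM in its other 2 replicates and 122.1 and 114.7 CPM in 120 h normal blood. At 96 h they were at 11.98 to 61.35 CPM in infested and 3.521 and 16.90 CPM in normal blood. Neuron and glia markers were at 98.84 to 265.0 CPM in 120 h infested, 66.35 and 82.70 CPM in 120 h normal, 54.78 to 126.7 CPM in 96 h infested and 42.25 and 59.85 CPM in 96 h normal blood.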
